A study of Homo sapiens with 4 samples.

Results

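The miR-130, miR-301 and miR-454 family was examined through its 3p strands hsa-miR-130a-3p, hsa-miR-130b-3p, hsa-miR-301a-3p, hsa-miR-301b-3p and hsa-miR-454-3p, 5 miRNAs named as guide strands of one seed family. The members were taken by name from the read counts of all libraries, in which 1474 mature miRNAs had at least 1 count, and all 5 were listed. Small RNA was sequenced on the BGISEQ-500 platform from 4 lines with 1 library per line. The parental lines HCT116 and RKO, established from human colorectal cancers, had not been irradiated. Their acquired radioresistant derivatives HCT116-R and RKO-R had received fractions of 4 Gy until 40 Gy were reached and were then kept for 3 weeks or longer without irradiation. Each radioresistant line was a single selected culture, and no line had a replicate, so every difference below lies between libraries and has no replicate check. Library totals lay between 6818497 and 7140460 counts. As a check of the labelled cell type, chosen after its values were seen, miR-200c-3p, a miRNA of epithelial cells, was counted 291469 and 286432 times in the HCT116 and HCT116-R libraries, but 649 and 1426 times in the RKO and RKO-R libraries. Its partner miR-141-3p likewise had 6630 and 8320 counts against 17 and 41. Of the other miR-200 miRNAs, also chosen after their values were seen, miR-200a-3p had between 10963 and 14416 counts, miR-200b-3p between 4325 and 6520 and miR-429 between 51772 and 108375 over the 4 libraries. MiR-192-5p, typical of the intestinal epithelium, had between 1379 and 2236 counts in all 4 libraries.

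A miRNA guides Argonaute proteins to messenger RNAs mainly by its seed, bases 2 to 8 from the 5′ end, so that miRNAs with the same seed have largely overlapping targets. The family is known for targeting genes of growth control and TGF-β signaling, and miR-301a and miR-130b have been described as raised in several tumors, colorectal cancer included. Each hairpin gives a 5p and a 3p arm, of which the more abundant one is usually the guide and the other the passenger strand.

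The mature sequences show what the members share and where they part. They were taken from RefSeq (GRCh38.p14), which held 4 of the 5 members, and are written 5′ to 3′ with the seed in capitals. MiR-130a-3p was not among the sequences used here.
miR-301a-3p: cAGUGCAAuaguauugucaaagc
miR-301b-3p: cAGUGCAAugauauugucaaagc
miR-130b-3p: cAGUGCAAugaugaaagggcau
miR-454-3p: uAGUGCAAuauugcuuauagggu

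The 4 sequences had the same seed, AGUGCAA, and differed after it. Counting from 1 at the 5′ end, miR-301a-3p and miR-301b-3p differed at 2 of 23 bases (A10G and G11A, with the base of miR-301a-3p first). MiR-130b-3p and miR-301b-3p were identical over the first 12 bases and differed at 9 of the 22 bases compared. MiR-454-3p had 10 to 12 differences from the other 3 and was the only one of them to start with U. The way in which the authors assigned reads that match several miRNAs is not given in the sources used here, so the split between miR-301a-3p and miR-301b-3p is uncertain. The other human miRNAs listed with this seed, miR-3666 and miR-4295, had 0 counts in all 4 libraries, which allows a level of up to 0.440 CPM (counts per 1000000 counts of the library) for HCT116 and HCT116-R, and of 0.420 and 0.434 CPM for RKO and RKO-R.

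The hairpins lie at 3 places of the genome (GENCODE release 29, GRCh38; the submitters' processing notes name hg38, the same assembly). MIR301A (chromosome 17, 59151136 to 59151221) and MIR454 (chromosome 17, 59137758 to 59137872) are on the minus strand in introns of SKA2, a gene for a protein of the spindle and kinetochore, with 13263 bases between them. MIR301B (chromosome 22, 21652981 to 21653058) and MIR130B (chromosome 22, 21653304 to 21653385) are on the plus strand with 245 bases between them. MIR301B falls in an intron and MIR130B in an exon of AP000553.1, a non-coding gene. MIR130A (chromosome 11, 57641198 to 57641286, plus strand) stands alone, in an intron of AP000662.1, also a non-coding gene. None of the 5 hairpins had a miRNA gene annotated on the opposite strand.

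The family took a small part of the reads. The 5 members summed to 5103 and 4176 counts in the HCT116 and HCT116-R libraries and to 8062 and 8979 counts in the RKO and RKO-R libraries. In CPM, the family stood at 748 (95% Wilson confidence interval 728 to 769) for HCT116, 612 (594 to 631) for HCT116-R, 1129 (1105 to 1154) for RKO and 1299 (1272 to 1326) for RKO-R. The family sum was therefore higher in both RKO libraries than in both HCT116 libraries, by 1.51-fold between the parental lines and 2.12-fold between the radioresistant lines. Between the parental lines most of this lay in miR-454-3p, at 154 CPM in HCT116 and 533 CPM in RKO. MiR-301a-3p (392 and 413 CPM) and miR-301b-3p (134 and 143 CPM) were close. MiR-130b-3p was higher in RKO (10.7 and 39.6 CPM), and miR-130a-3p was lower (57.5 and 0.140 CPM). Within the lines the sums moved in opposite directions, to 0.819 of the parental level in HCT116-R and 1.15 of it in RKO-R. The ratios depended on the scaling. RKO-R over RKO was 1.36 with TMM, which corrects library sizes for a few miRNAs that take many reads, and 1.48 with the size factors of DESeq2. In the same order, RKO over HCT116 was 1.38 and 1.44, and RKO-R over HCT116-R was 2.27 and 2.77. HCT116-R over HCT116 was 0.825 and 0.765. Among the seeds with at least 1 count, the seed AGUGCAA ranked 50 of 848 in HCT116, 54 of 905 in HCT116-R, 39 of 767 in RKO and 38 of 760 in RKO-R. Seeds were known only for the 1313 of 1474 names that matched RefSeq, and the other names were left out. MiR-130a-3p, also without a match, was counted with this seed by its family name, so the ranks are approximate. The intervals cover counting error only. In cultured lines, a smaller share of expressing cells and less RNA per cell cannot be told apart.

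Hsa-miR-301a-3p, the SKA2 miRNA that gave most family reads in 3 of the 4 libraries, was counted 2674 and 1901 times in HCT116 and HCT116-R and 2948 and 4416 times in RKO and RKO-R. In this order the levels were 392 CPM (377 to 407), 279 CPM (267 to 292), 413 CPM (398 to 428) and 639 CPM (620 to 658). HCT116 and RKO were thus close to each other, with HCT116-R below and RKO-R above both. With the biological coefficient of variation (BCV) of 0.2 that the methods name added to the counting error, no neighbours in this order differed beyond their interval.

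Hsa-miR-454-3p, from the same gene, was read 1049 and 1335 times in the HCT116 pair of libraries (parental first) and 3807 and 3063 times in the RKO pair. The corresponding levels were 154 CPM (145 to 163), 196 CPM (186 to 207), 533 CPM (516 to 550) and 443 CPM (428 to 459). Both RKO libraries were above both HCT116 libraries, and the step between them, RKO-R over HCT116-R at 2.26-fold (interval 1.29 to 3.95 with the BCV of 0.2), was the only one in the order whose interval did not hold 1.

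Hsa-miR-301b-3p, from the chromosome 22 locus, followed the pattern of miR-301a-3p at a lower level. Its counts were 915 and 594 in the HCT116 pair and 1023 and 1215 in the RKO pair, or 134 CPM (126 to 143), 87.1 CPM (80.4 to 94.4), 143 CPM (135 to 152) and 176 CPM (166 to 186). The order of the libraries was that of miR-301a-3p, and again no neighbours differed beyond their interval.

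Hsa-miR-130b-3p, its neighbour on chromosome 22, reached 73 and 56 counts in the HCT116 pair and 283 counts in both libraries of the RKO pair. The levels were 10.7 CPM (8.51 to 13.5) and 8.21 CPM (6.33 to 10.7) in the HCT116 libraries, and 39.6 CPM (35.3 to 44.5) and 40.9 CPM (36.4 to 46.0) in the RKO libraries. The RKO library exceeded the HCT116 library 3.70-fold (2.01 to 6.83 with the BCV of 0.2), while the other neighbours were within their interval.

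Hsa-miR-130a-3p, from the hairpin that stands alone on chromosome 11, was the one member almost confined to HCT116 and HCT116-R. Its 392 and 290 counts there stood against 1 count for RKO and 2 counts for RKO-R. The levels were 57.5 CPM (52.0 to 63.4), 42.5 CPM (37.9 to 47.7), 0.140 CPM (0.0247 to 0.793) and 0.289 CPM (0.0793 to 1.05). The RKO counts are under the floor of 3 counts per library, so no change is given between RKO and RKO-R. The 5p arm of this hairpin, miR-130a-5p, followed it with 14 counts for HCT116, 10 for HCT116-R and 0 for both RKO libraries.

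**Figure D1:**
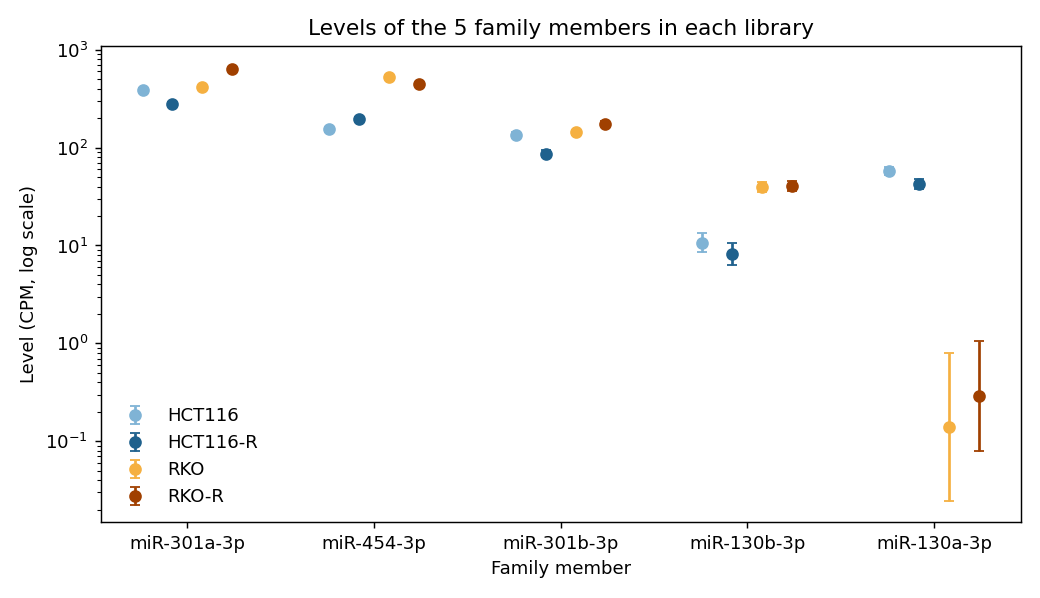
Levels of the 5 members (x axis) in CPM on a log scale (y axis), 1 point per library, with bars for the 95% Wilson interval of counting error. MiR-454-3p and miR-130b-3p are higher in both RKO libraries, miR-130a-3p falls from 57.5 and 42.5 CPM in the HCT116 libraries to 0.140 and 0.289 CPM in the RKO libraries, and miR-301a-3p and miR-301b-3p follow the same order of libraries.

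The make-up of the family differed between the lines, for miR-301a-3p and miR-454-3p more between the parental lines than between the radioresistant ones. A read of a small RNA library spans the whole miRNA, so shares of reads were compared without division by length, and division by length left each share of the 4 members with a known length within its interval. Ligation and amplification can favour one sequence over another, which affects shares within a library more than comparisons of 1 member between libraries. MiR-301a-3p held 52.4% of the family reads (95% Wilson interval 51.0 to 53.8) in HCT116, 45.5% (44.0 to 47.0) in HCT116-R, 36.6% (35.5 to 37.6) in RKO and 49.2% (48.1 to 50.2) in RKO-R. MiR-454-3p moved the other way, with 20.6% (19.5 to 21.7), 32.0% (30.6 to 33.4), 47.2% (46.1 to 48.3) and 34.1% (33.1 to 35.1). In RKO miR-454-3p was thus the leading member, and in the other 3 libraries miR-301a-3p was. MiR-301b-3p held between 12.7% in RKO and 17.9% in HCT116. MiR-130b-3p held 1.43% and 1.34% in HCT116 and HCT116-R, against 3.51% and 3.15% in RKO and RKO-R. MiR-130a-3p held 7.68% and 6.94% in HCT116 and HCT116-R, against 0.0124% and 0.0223% in RKO and RKO-R. Together, the SKA2 miRNAs made up 73.0% and 77.5% of the family reads of HCT116 and HCT116-R, against 83.8% and 83.3% for RKO and RKO-R.

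**Figure D2:**
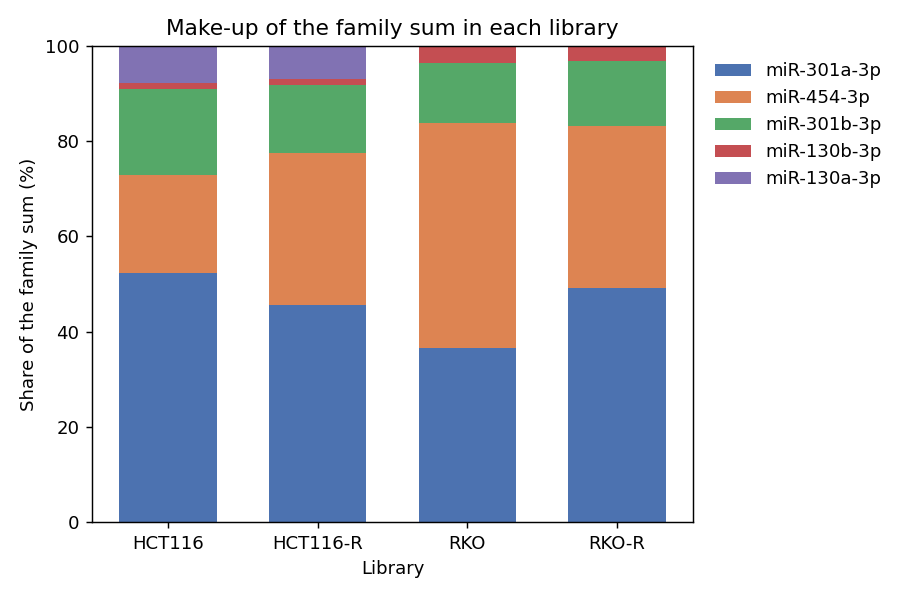
Share of the family reads (y axis, %) held by each member in each library (x axis, stacked bars that add up to the family sum). MiR-454-3p takes 20.6% in HCT116 and 47.2% in RKO, but 32.0% in HCT116-R and 34.1% in RKO-R. The band of miR-130a-3p is seen only in HCT116 and HCT116-R.

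Members from one locus did not keep a fixed ratio. Counts of miR-301a-3p were 2.55 times those of miR-454-3p in HCT116, 1.42 times in HCT116-R, 0.774 times in RKO and 1.44 times in RKO-R, although both come from SKA2. MiR-301b-3p exceeded miR-130b-3p 12.5-fold in HCT116 and 10.6-fold in HCT116-R, but 3.62-fold in RKO and 4.29-fold in RKO-R. Of the 6 ratios among these 4 members, that of miR-301a-3p to miR-301b-3p was the steadiest. The 2 come from different chromosomes and differ at 2 bases, and the ratio was 2.92, 3.20, 2.88 and 3.63 in the same order. On the log2 scale this ratio ranged over 0.33, against 1.72 for miR-301a-3p to miR-454-3p and 1.79 for miR-301b-3p to miR-130b-3p. The other ratios between the 2 loci varied too, over 1.70 for miR-454-3p to miR-301b-3p, 1.81 for miR-301a-3p to miR-130b-3p and 1.14 for miR-454-3p to miR-130b-3p. Whether reads shared between miR-301a-3p and miR-301b-3p had a part in this was not tested.

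The arms of the hairpins were compared to see whether the strands named as guides were the major ones. In miR-301a, miR-301b, miR-454 and, in the HCT116 libraries, miR-130a the 3p arm held at least 96.15% of the reads of both arms in every library. MiR-301a-5p had between 2 and 33 counts, miR-301b-5p between 4 and 20, and miR-454-5p between 35 and 58. MiR-130b was the exception. Its 5p arm outnumbered the 3p arm in every library, with 1468 counts against 73 in HCT116, 1311 against 56 in HCT116-R, 1158 against 283 in RKO and 1133 against 283 in RKO-R. The 3p arm of miR-130b thus held 4.74% of both arms (95% Wilson interval 3.78 to 5.92) in HCT116 and 4.10% (3.17 to 5.28) in HCT116-R, and 19.6% (17.7 to 21.8) in RKO and 19.99% (17.99 to 22.1) in RKO-R. The intervals of the HCT116 libraries did not overlap with those of the RKO libraries. The more abundant arm has another seed and is shown here, with bases 2 to 8 in capitals, because it carried most reads of this hairpin.
miR-130b-5p: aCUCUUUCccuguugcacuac

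**Figure D3:**
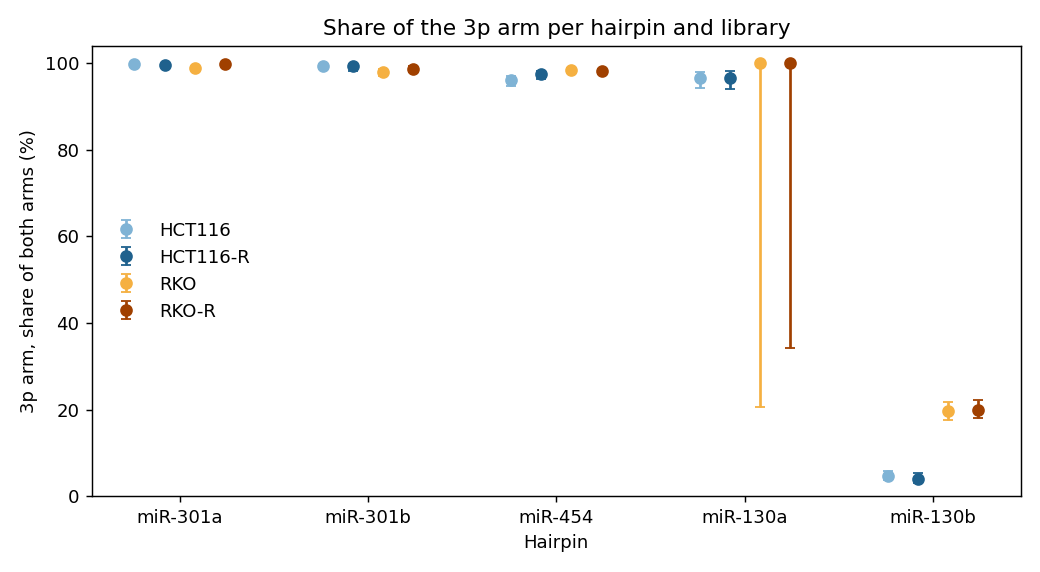
Reads of the 3p arm as a share of both arms (y axis, %) for each hairpin (x axis), 1 point per library, with 95% Wilson intervals. In miR-130b the 3p arm takes 4.74% and 4.10% in the HCT116 libraries and 19.6% and 19.99% in the RKO libraries, while the wide bars of miR-130a in RKO and RKO-R rest on 1 and 2 reads.

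A predominance of the 5p arm was not rare. Of 177 miRNA names with both arms listed and at least 20 counts over both arms in every library, 96 had more 5p reads in all 4 libraries and 67 more 3p reads. Between the parental lines the log2 ratio of 3p to 5p reads of miR-130b shifted by 2.29 (RKO over HCT116), and between the radioresistant lines by 2.54. Over the 177 names the median size of such a shift was 0.931 and 1.02, and a shift of at least 1 was seen in 46.3% and 50.8% of them. Within the lines miR-130b moved little, by -0.22 in HCT116-R and 0.03 in RKO-R, where the median sizes were 0.604 and 0.680. MiR-130b-5p lay between 162 and 215 CPM in all 4 libraries.

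Whether the family changed with acquired radioresistance was tested by comparing each radioresistant library with its parental library. The exact test of edgeR was used with the BCV fixed at the value of the methods, and p-values were adjusted over every miRNA counted in either library of the pair (Benjamini-Hochberg). The SE given with a log2 fold change combines counting error with the assumed BCV, and the test compares a library with a library rather than conditions.

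In HCT116-R, 4 members were lower and miR-454-3p was higher than in HCT116, and none of the 5 was called at an adjusted p under 0.05 or had an unadjusted p under 0.05. In this pair 4.01% of 1322 miRNAs were called. The largest difference was that of miR-301b-3p, at -0.64 on the log2 scale (SE 0.42, adjusted p = 0.698 in edgeR's exact test). MiR-301a-3p had a log2 fold change of -0.51 (SE 0.41), miR-130a-3p of -0.46 (SE 0.42), miR-130b-3p of -0.40 (SE 0.48) and miR-454-3p of 0.33 (SE 0.41). The median of the 5 was -0.46, against 0.0017 over the miRNAs with at least 10 counts in the pair. The 95% intervals of the log2 fold changes reached from -1.46 for miR-301b-3p to 1.14 for miR-454-3p.

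In RKO-R, again none of the 5 members was called, where 5.54% of 1155 miRNAs were. MiR-130a-3p, with 1 count in RKO and 2 in RKO-R, was too low for a call, so its result says nothing of a change. MiR-301a-3p came closest, with a log2 fold change of 0.87 (SE 0.41, unadjusted p = 0.0367 and adjusted p = 0.331 in edgeR's exact test). MiR-301b-3p had a log2 fold change of 0.53 (SE 0.41) and miR-130b-3p, with equal counts in both libraries, one of 0.28 (SE 0.43). Scaling by TMM raised log2 fold changes in this pair by 0.24 over library totals, so the value of miR-130b-3p comes from the scaling. MiR-454-3p had a log2 fold change of -0.03 (SE 0.41, interval from -0.83 to 0.77), which was also the median of the miRNAs with at least 10 counts in this pair.

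Between the pairs, miR-130b-3p, miR-301a-3p and miR-301b-3p had negative log2 fold changes in HCT116-R and positive ones in RKO-R, and miR-454-3p the reverse. The difference itself was tested as the interaction of line and radioresistance, with the likelihood ratio test of edgeR at the same BCV over 1474 miRNAs, of which 4.75% were called. None of the 5 members was called, and miR-130a-3p, with 1 count in RKO and 2 in RKO-R, was too low there for its difference to be read. The difference in log2 fold change (RKO pair minus HCT116 pair) was 1.35 for miR-301a-3p (unadjusted p = 0.0208, adjusted p = 0.204), 1.14 for miR-301b-3p (adjusted p = 0.354), 0.65 for miR-130b-3p (adjusted p = 0.863) and -0.39 for miR-454-3p (adjusted p = 1.00) in the edgeR likelihood ratio test.

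The lines themselves were compared next, RKO against HCT116. Here 3 of the 5 members were called, where 25.5% of 1289 miRNAs were. MiR-130a-3p was lower in RKO, with 392 counts against 1, and the ratio of HCT116 to RKO in CPM was 410 (exact 95% interval of counting error 73.2 to 16240, adjusted p = 1.06e-24 in edgeR's exact test). MiR-130b-3p was higher in RKO by 1.76 on the log2 scale (SE 0.45, adjusted p = 0.000819) and miR-454-3p by 1.67 (SE 0.41, adjusted p = 0.000568), both by edgeR's exact test. Both calls were lost at a BCV of 0.4 (adjusted p = 0.232 and 0.245) and at 0.490, the value estimated over all libraries (adjusted p = 0.446 and 0.478), while that of miR-130a-3p was kept. The estimate of 0.490 takes line and radioresistance as factors. Its spread is therefore the disagreement between the pairs and not a spread between replicates. The near-identical miR-301a-3p and miR-301b-3p had log2 fold changes of -0.05 (interval from -0.85 to 0.75) and -0.03 (interval from -0.84 to 0.78), and both became positive with library totals, with the size factors of DESeq2 or with a filter on low counts. The miRNAs with at least 10 counts in this pair had a median log2 fold change of -0.22.

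The radioresistant lines, a comparison added after the data had been seen, gave the same direction for the 3 called members. All 5 members were called in RKO-R against HCT116-R, where 23.2% of 1333 miRNAs were. MiR-130a-3p had 290 counts against 2, a CPM ratio of HCT116-R to RKO-R of 147 (exact 95% interval of counting error 40.3 to 1220, adjusted p = 2.51e-18 in edgeR's exact test). The 4 other members were higher in RKO-R, miR-130b-3p by 2.65 on the log2 scale (SE 0.46, adjusted p = 4.53e-07), miR-301a-3p by 1.53 (SE 0.41, adjusted p = 0.00198), miR-454-3p by 1.51 (SE 0.41, adjusted p = 0.00227) and miR-301b-3p by 1.35 (SE 0.41, adjusted p = 0.00839) in edgeR's exact test. The TMM scaling adds 0.33 to each log2 fold change of this comparison over library totals, with which miR-301b-3p was not called (adjusted p = 0.0652 in edgeR's exact test). At a BCV of 0.4 the calls of miR-130a-3p and miR-130b-3p were left (adjusted p = 1.27e-06 and 0.0361), and at the estimated BCV that of miR-130a-3p alone (adjusted p = 0.000152).

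**Figure D4:**
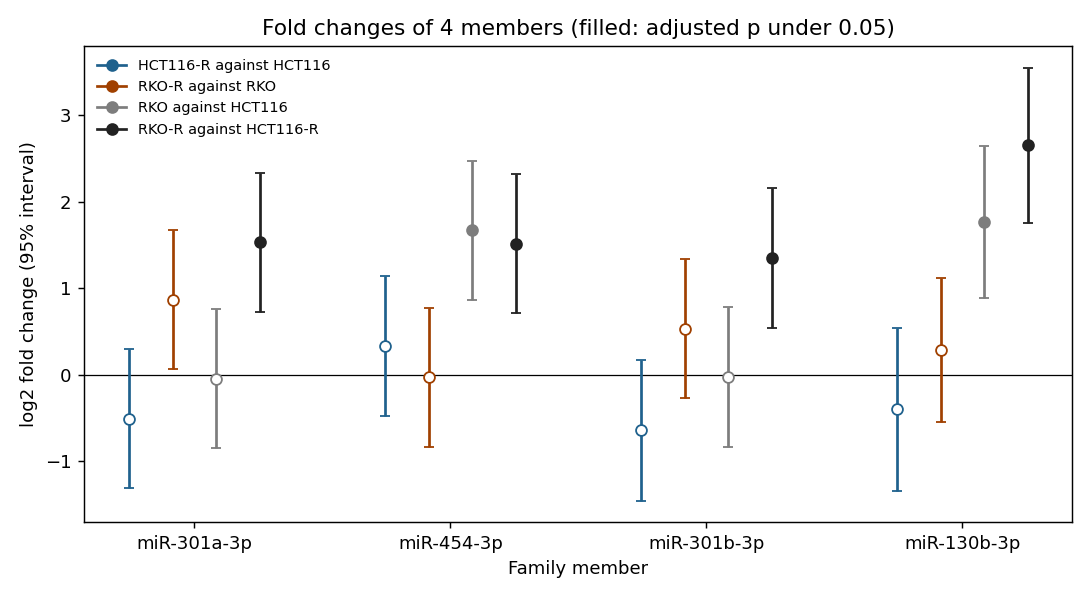
log2 fold changes (y axis) of 4 members (x axis) in 4 comparisons of libraries, with bars for the 95% interval at the assumed BCV of 0.2 and filled points for an adjusted p under 0.05. MiR-130a-3p is left out because RKO and RKO-R had 1 and 2 counts. All points of HCT116-R against HCT116 and RKO-R against RKO are open, and all 4 members are filled in RKO-R against HCT116-R.

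All 4 libraries were also fitted together with line and radioresistance as factors, using the quasi-likelihood test of edgeR. The spread is estimated from the libraries with 1 residual degree of freedom. With 1 library per line, that residual is the difference between the pairs in their change with radioresistance, not a spread between replicates. Over 598 miRNAs, 28.3% were called between the RKO and HCT116 lines. MiR-130a-3p (log2 fold change -7.64, adjusted p = 0.00314) and miR-130b-3p (2.20, adjusted p = 0.0337) were called, and miR-454-3p was just above the threshold (1.59, adjusted p = 0.0582 from the edgeR quasi-likelihood test). MiR-301a-3p (0.74, adjusted p = 0.396) and miR-301b-3p (0.66, adjusted p = 0.470) were not called in this edgeR fit. For radioresistance 0.669% of the 598 miRNAs were called, or 4, and 10 had an unadjusted p under 0.05. No member was among the called ones, with log2 fold changes between -0.11 for miR-130a-3p and 0.15 for miR-301a-3p and an adjusted p of 0.998 for each (edgeR quasi-likelihood test). This effect averages the pairs, in which miR-130b-3p, miR-301a-3p, miR-301b-3p and miR-454-3p had opposite signs. For miR-301a-3p they were -0.51 in HCT116-R and 0.87 in RKO-R, and for miR-301b-3p -0.64 and 0.53. The small averages therefore do not show that a member was unchanged within a line.

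Of the 5p arms of the same hairpins, none was called with radioresistance in HCT116-R or RKO-R, where 4.01% and 5.54% of all miRNAs tested were. MiR-130a-5p had 0 counts in both RKO libraries, so 4 of the 5 arms could be tested in RKO-R. Between the parental lines, 2 of the 5 were called, where 25.5% of all miRNAs tested were. MiR-130a-5p was higher in HCT116 than in RKO (14 counts against 0, adjusted p = 0.00192 in edgeR's exact test), the same direction as its 3p arm. Its CPM in HCT116 was 4.88-fold that of the floor of 3 counts in RKO, a value that leaves out the counting error of the 14 counts. MiR-301a-5p had 33 counts in RKO and 2 in HCT116, a CPM ratio of 15.8 (exact 95% interval of counting error 4.03 to 136, adjusted p = 0.000171 in edgeR's exact test), but 6 in RKO-R and 9 in HCT116-R, where it was not called. MiR-130b-5p had a log2 value of -0.53 for RKO over HCT116 (SE 0.41, adjusted p = 0.441 in edgeR's exact test) where miR-130b-3p was called higher, and the difference between the arms was not tested.

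The seeds of miR-148a-3p, miR-148b-3p and miR-152-3p (CAGUGCA) and of miR-19a-3p and miR-19b-3p (GUGCAAA) hold 6 bases of the family seed shifted by 1 base. None of these 5 miRNAs was called with radioresistance in either pair. Of all miRNAs tested, 4.01% were called in HCT116-R, 5.54% in RKO-R and 25.5% between the parental lines. Between the parental lines, miR-152-3p alone was called, with 27 and 28 counts for HCT116 and HCT116-R against 1641 and 864 for RKO and RKO-R (log2 fold change 5.73, SE 0.49, adjusted p = 1.06e-24 in edgeR's exact test). Between the radioresistant lines, 2 of the 5 were called, miR-152-3p (5.25, adjusted p = 2.79e-21) and miR-19b-3p (1.08, adjusted p = 0.0409 in edgeR's exact test), both higher in RKO-R, where 23.2% of all miRNAs tested were called. With library totals miR-19b-3p was not called (0.75, adjusted p = 0.221). MiR-19b-3p was the most abundant of the 5 at 431 to 781 CPM, a range that overlaps with that of miR-301a-3p.

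The miRNAs most like the family in their profile were sought among 203 miRNAs with at least 100 counts in every library, by the Euclidean distance of log2 CPM over the 4 libraries after centring each profile on its mean. Nearest to the family sum were miR-589-5p (distance 0.171), let-7d-5p (0.178) and miR-18a-5p (0.242). For instance, miR-589-5p had 239, 221, 368 and 415 counts in HCT116, HCT116-R, RKO and RKO-R. Nearest to single members were miR-340-3p for miR-301a-3p (0.187), miR-21-3p for miR-301b-3p (0.199), miR-3200-3p for miR-130b-3p (0.127) and miR-505-3p for miR-454-3p (0.362). With 4 libraries such distances describe these profiles only.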

How the data were processed

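Small RNA libraries with unique molecular identifiers were made from size-selected RNA and sequenced from 4 lines. For each library the authors deposited a table of raw read counts by mature miRNA, and miRNAs that a table does not list were set to 0 counts. The submitters' processing notes name Bowtie2 and hg38, and the handling of identifiers and of reads that match several miRNAs is not given in the sources used here. Groups were taken from the titles, and doses from the methods.

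Counts were scaled by library totals to CPM with 95% Wilson intervals and a floor of 3 counts per library, which cover counting error only. Pairs were tested with the exact test of edgeR 4.0.16 (R 4.3.3, TMM, BCV of 0.2, every miRNA counted in the pair), the interaction with its likelihood ratio test, and the additive model of all 4 libraries with its quasi-likelihood test. Calls were made at an adjusted p under 0.05 (Benjamini-Hochberg over all miRNAs tested). Of 1474 names, 1313 matched RefSeq. All 5 members, the 5p arms, the other miRNAs of the seed, 5 miRNAs with a shifted seed and the nearest profiles were named by rule. Members and lists were chosen with earlier results of these data known. Tests were tried on simulated data. DESeq2 1.42.0 gave alternative size factors and a Wald test. Python 3.11.15 was used with scipy 1.17.1.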

Additional observations from a re-analysis of the deposited data

Results flagged for a closer look

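MiR-301a-5p, the minor arm of the miR-301a hairpin, was flagged because the interaction called it, where 4.75% of 1474 miRNAs were called. With 1 library per line, its difference lies between libraries and has no replicate check. The HCT116 library held 2 counts of it and the HCT116-R library 9, whereas RKO had 33 and RKO-R had 6, a difference in log2 fold change of -4.27 between the RKO pair and the HCT116 pair (adjusted p = 0.0185 from the edgeR likelihood ratio test of the interaction at the assumed BCV of 0.2). It was called in neither pair alone (adjusted p = 0.586 and 0.0652 in edgeR's exact test), and the fitted value rests on a library under the floor of 3 counts.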

How the results depend on the processing

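The direction of the line differences of miR-130a-3p, miR-130b-3p and miR-454-3p was kept under the alternatives that fitted each member alone. Calls depended on the assumed BCV. At 0.1, 154 miRNAs were called in HCT116-R against HCT116 and 148 in RKO-R against RKO, with 1 member in each (miR-301b-3p and miR-301a-3p), and the interaction called 178 miRNAs with 2 members (miR-301a-3p and miR-301b-3p). At 0.4, 24, 9 and, for RKO against HCT116, 152 miRNAs were called, with 1 member, miR-130a-3p, in the last, and the interaction called 14. With the BCV set to 0.490, as estimated over the 4 libraries from the disagreement between the pairs, these were 13, 5 and 111, again with 1 member in the last. With miR-301a-3p added to miR-301b-3p and miR-130a-3p to miR-130b-3p, miR-454-3p kept its call between the parental lines and neither sum was called. Before summing, 25.5% of all miRNAs tested were called there. The last sum joins members with opposite differences (465 counts in HCT116 and 284 in RKO, log2 fold change -0.90, adjusted p = 0.120 in edgeR's exact test), so it says nothing of either one. In RKO-R against HCT116-R, 5 members were called.

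In the fit of all 4 libraries, the likelihood ratio test at a BCV of 0.2 called 356 of 598 miRNAs between the lines and 39 for radioresistance. All 5 members were among those called between the lines, as were most miRNAs tested. Without TMM, miR-130a-3p kept its call between the lines and miR-130b-3p lost it, and 2 miRNAs were called for radioresistance. The share of all miRNAs called between the lines in that setting is not given here, and with TMM it was 28.3%. Without a filter on low counts, 11 were called for radioresistance. The Wald test of DESeq2 called 111 of 598 miRNAs between the lines. It called 3 members, with miR-454-3p added, and gave miR-130a-3p a log2 fold change for radioresistance of 0.020, with the sign reversed.

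Between the parental lines, miR-301a-3p and miR-301b-3p changed sign to log2 fold changes of 0.075 and 0.095 with library totals, 0.066 and 0.086 with size factors of DESeq2, 0.026 and 0.046 with a filter of 1 CPM, and 0.026 and 0.046 with a filter of 10 counts. With size factors of DESeq2, the family sum became 561 CPM (HCT116-R), 1052 CPM (RKO) and 1554 CPM (RKO-R), and with TMM it became 1035 CPM (RKO) and 1403 CPM (RKO-R). The causes were not tested. The fit of all 4 libraries compares each radioresistant line with its own parent, since line is a term of it. The labels give no replicate numbers, so no replicate block was fitted, and no replicate could be left out.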
